A study of Mus musculus with 6 samples.

Results

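The genes described here are those that the deposited table annotates with the Gene Ontology term for lipid metabolic process itself, in mouse colon RNA. A row was taken where that term stood in its functional annotation, leaving out a set of named symbols and symbol prefixes, such as the Slc and Abc transporters. This gave 8 of the 2033 rows, and 0 rows with the term were removed by the exclusions. The 8 genes are Mogat2, Lpin2, Pnliprp1, Apob, Ppara, Sult1d1, Pcx and Trpv1. Colon RNA of mice exposed long-term to PFOA (perfluorooctanoic acid, a fluorinated surfactant known to activate PPAR-alpha) was set against colon RNA of controls, with 3 libraries in each of the 2 groups. Apart from tissue and treatment, the labels mention 6 frozen mice for each group but do not link mice to libraries, and dose, strain, sex, age and part of the colon are not in the sources used here. The p-values therefore measure the spread between libraries, which may be technical.

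Intestinal cells take up fatty acids and monoglycerides from digested fat, rebuild them into triglycerides in the endoplasmic reticulum and either store them in droplets or export them on particles built around apolipoprotein B. MOGAT2 joins a fatty acid to a monoglyceride, and lipins remove the phosphate from phosphatidate, so that both make the diglyceride from which triglyceride is built. PPAR-alpha is the nuclear receptor that senses fatty acids and switches on genes of their oxidation.

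The table holds only rows that already differed: the log2 ratio of mean raw counts, PFOA over control, was at most -1.08 or at least 0.92 in every row. The listed counts of a library ranged from 1771120 to 2269892, which covers listed rows only and is not the sequencing depth. Of the 1608 rows with enough counts for edgeR's quasi-likelihood test, 100% passed an adjusted p of 0.05, with 50% higher and 50% lower in PFOA, so a member's p-value below restates the selection and is no separate evidence of an effect. The groups did not overlap in 97.1% of all rows. Absence of a gene from the table does not show that it stayed constant. Of 18 defining markers of colon epithelium, 6 had rows, and each of these was counted at least 619 times in every library. PFOA replicate 1 stood apart from the other PFOA libraries for several of the genes below.

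Of the 8 genes, 5 were higher in PFOA (Mogat2, Apob, Ppara, Lpin2 and Sult1d1) and 3 were lower (Pcx, Trpv1 and Pnliprp1). All 7 genes with enough counts passed the test, 5 higher and 2 lower, beside 804 higher and 804 lower rows in the table. Pnliprp1 was too low to be tested. The groups of libraries did not overlap for 8 of 8 genes. The tested genes had a median log2 fold change of 2.29, against -0.03 over all tested rows. By size alone the median was 2.43 for these genes and 1.76 for all tested rows. The genes with the term lay on both sides. Of the narrower lipid terms in the table, triglyceride biosynthesis was shared by Lpin2 and Mogat2, and lipoprotein metabolism by Apob and Ppara, all of them higher in PFOA.

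**Figure D1:**
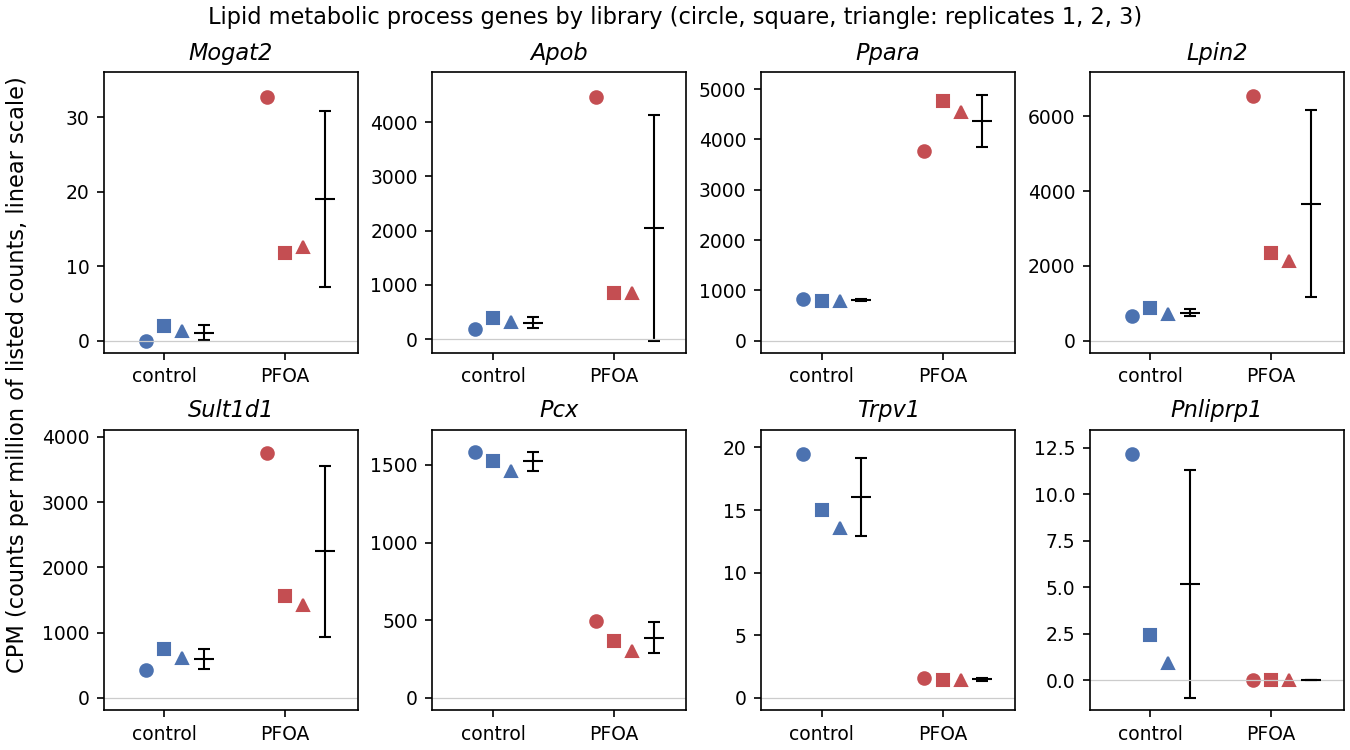
CPM (library-scaled counts, vertical axis, linear scale with its own range for each gene) of the 8 genes in each library, with control libraries in blue and PFOA libraries in red; circles, squares and triangles stand for replicates 1, 2 and 3, and the bar gives the mean and SD of 3 libraries. No gene overlaps between the groups, and PFOA replicate 1 is far above the other PFOA libraries for Mogat2, Apob, Lpin2 and Sult1d1 but below them for Ppara.

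The start regions of 4 of the genes are shown because they contrast 3 genes that rose, from CG-poor (Sult1d1) to CG-rich (Ppara). The Pcx start shown is the only one with an exact match to the nuclear receptor motif searched for. RefSeq start regions (250 bases before to 50 after the start, assembly GRCm38.p6, the assembly of mm10) matched 7 of the 8 genes with 10 starts in all. Capitals mark CG pairs in Apob, Sult1d1 and Ppara, and in Pcx the motif TGACCT.
Apob (chr12:7977427-7977726, plus strand): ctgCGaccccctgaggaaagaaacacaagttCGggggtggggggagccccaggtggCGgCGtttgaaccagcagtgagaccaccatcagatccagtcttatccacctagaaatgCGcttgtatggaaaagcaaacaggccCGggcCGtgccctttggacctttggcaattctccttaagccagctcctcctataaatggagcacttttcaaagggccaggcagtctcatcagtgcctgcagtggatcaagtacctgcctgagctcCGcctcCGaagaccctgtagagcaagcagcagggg
Sult1d1 (chr5:87568957-87569256, minus strand): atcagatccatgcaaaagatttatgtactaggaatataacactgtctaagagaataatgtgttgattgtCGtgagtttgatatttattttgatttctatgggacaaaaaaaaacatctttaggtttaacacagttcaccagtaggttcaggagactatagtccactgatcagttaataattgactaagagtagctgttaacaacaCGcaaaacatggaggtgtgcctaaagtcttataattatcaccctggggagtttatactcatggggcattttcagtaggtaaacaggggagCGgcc
Ppara (chr15:85735526-85735825, plus strand): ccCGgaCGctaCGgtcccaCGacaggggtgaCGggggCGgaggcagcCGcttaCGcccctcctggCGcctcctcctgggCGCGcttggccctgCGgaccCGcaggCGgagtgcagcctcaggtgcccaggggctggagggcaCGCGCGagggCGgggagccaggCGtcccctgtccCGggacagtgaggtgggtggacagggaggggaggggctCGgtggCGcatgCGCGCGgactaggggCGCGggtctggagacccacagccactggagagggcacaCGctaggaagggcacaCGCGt
Pcx (chr19:4594069-4594368, plus strand): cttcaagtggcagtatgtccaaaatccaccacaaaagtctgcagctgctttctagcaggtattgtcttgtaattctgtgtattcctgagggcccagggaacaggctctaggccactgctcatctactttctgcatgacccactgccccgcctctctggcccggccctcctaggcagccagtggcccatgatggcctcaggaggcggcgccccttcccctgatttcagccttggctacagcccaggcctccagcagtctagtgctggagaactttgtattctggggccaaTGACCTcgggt
The Ppara region held 30 CG pairs, more than 88.3% of the 32817 start regions in the table, while Sult1d1 held 3 and Apob 9, beside a median of 7. The 3 Lpin2 starts held 37, 54 and 4 CG pairs, so the genes that rose had both CG-rich and CG-poor starts. Among the genes that fell, Trpv1 held 4 CG pairs, Pnliprp1 held 3, and the Pcx starts held 20 and 5. On either strand, 1 of the 10 member starts held the nuclear receptor motif AGGTCA, the Pcx start printed above, where it reads TGACCT. The same motif was found in 16.3% of all start regions. Only exact matches were counted, so a start without one may still hold a variant receptor site. A direct repeat of AGGTCA with 1 base between, which overlaps the single motif by construction, was in 0 of the 10 and in 0.0396% of all. The SREBP element (TCAC, any base, CCAC) was in 0 of the 10 and 1.24% of all, and the CDX motif TTTATTG in 0 of the 10 and 4.6% of all. Which start the transcripts used is not known from counts.

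Triglyceride synthesis was represented by 2 genes that rose, Mogat2 and Lpin2. Mogat2, which in the small intestine rebuilds absorbed monoglycerides, was counted 0, 4 and 3 times in the controls and 61, 25 and 27 times under PFOA. It was nearly uncounted in control and low but present in every PFOA library. In CPM, which scales a library to its counts over the tested rows with edgeR's TMM factor, Mogat2 was at 1.1 ± 0.994 in control and 19 ± 11.9 in PFOA (SD, n = 3 per group). The ratio of summed scaled counts was 16.6, with a 95% counting interval (Clopper-Pearson) from 7.82 to 42.3 that covers counting error only. Its log2 fold change was 4.02 ± 0.77 (standard error over 3 libraries a group; adjusted p of edgeR = 0.0021). Leaving out control replicate 1 gave 3.34, leaving out control replicate 2 gave 4.61, and leaving out PFOA replicate 1 gave 3.36. The row lies on the minus strand (chr7:99219084-99238594, mm10) and overlaps Gm45012, an antisense gene, so that reads of the 2 genes cannot be told apart without a stated strand setting.

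Lpin2, a phosphatidate phosphatase of the lipin family, is an enzyme of the endoplasmic reticulum and, by its annotation, of the nucleus. It was counted 1362, 1778 and 1598 times in the controls and 12198, 4960 and 4555 times under PFOA. All PFOA libraries were above all control libraries, and PFOA replicate 1 was at 2.93 times the mean of the other PFOA libraries in CPM. Lpin2 was at 749.6 ± 101 CPM in control and 3666 ± 2489.6 CPM in PFOA (SD, n = 3 per group), a 4.72-fold ratio. The log2 fold change was 2.29 ± 0.46 (standard error over 3 libraries a group; adjusted p of edgeR = 0.00246), or 1.54 without PFOA replicate 1. The row (chr17:71182481-71250268, plus strand) is an assembled locus whose model is 33048 bases long, against 5640 bases for the longest annotated Lpin2 transcript (GENCODE M21). It also lies inside the non-coding gene Gm26561 on the same strand, so counts of this row are not counts of the known transcripts alone.

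Pnliprp1, a relative of pancreatic lipase that the table describes as inactive, was lower in PFOA. It was counted 25, 5 and 2 times in the controls and 0 times in each PFOA library. Most of its control counts came from control replicate 1. Against a floor of 3 counts over the PFOA group, it was at least 10.3-fold lower, and at least 3.35-fold lower without control replicate 1. These bounds do not include the counting error of the control counts; with it, the lower 95% limit (Clopper-Pearson) was 7.94-fold with all libraries. Pnliprp1 (chr19:58728887-58744169, plus strand) is chiefly a product of pancreatic acinar cells. Of 12 markers of those cells, 2 had rows, and both were lower in every PFOA library than in any control: Cela1 was counted 3239, 1946 and 2048 times in the controls and 129, 132 and 118 times under PFOA, and Cpb1 had 5, 7 and 4 against 0, 0 and 2. Their summed level, nearly all of it Cela1 in every library, was 930.3 to 1582 CPM in control and 56 to 69.1 CPM in PFOA. The part of these markers in the result was not tested. In bulk tissue, fewer cells of a type and less RNA per cell cannot be told apart, here and for each gene below.

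Apob encodes the large structural protein of chylomicrons and of low-density lipoprotein. It was counted 392, 823 and 706 times in the controls and 8328, 1821 and 1814 times under PFOA. PFOA replicates 2 and 3 were close to each other and above every control, and PFOA replicate 1 was far above them both. The levels were 303 ± 105 CPM in control and 2056 ± 2085 CPM in PFOA (SD, n = 3 per group), so that the SD in PFOA was as large as the mean. The ratio was 6.42-fold with all libraries, and the log2 fold change was 2.76 ± 0.70 (standard error over 3 libraries a group; adjusted p of edgeR = 0.00661). Without PFOA replicate 1 the log2 fold change was 1.46. The mean of PFOA replicates 2 and 3 was 2.81 times the control mean, and PFOA replicate 1 was at 14.7 times the control mean. The row (chr12:7977648-8016835, plus strand) has the same length, 13934 bases, as the longest annotated transcript and overlaps no other gene model.

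Apob and Mogat2 are known from small intestinal enterocytes, and Apob also from hepatocytes, so markers of these cells are given beside them. Of 20 enterocyte markers, 7 had rows, Apob among them. Of the other 6 rows, 4 were higher in PFOA and 2 were lower (edgeR adjusted p under 0.05). Fabp2, the intestinal fatty acid-binding protein, was counted 134, 874 and 314 times in the controls and 9290, 4755 and 4402 times under PFOA, and like Apob was highest in PFOA replicate 1. The other 3 that were higher did not share this. Sis (40, 237 and 390 counts under PFOA) and Slc10a2 (2504, 4144 and 3862) were lowest in PFOA replicate 1. Alpi (944, 1039 and 1506) was highest in PFOA replicate 3. Slc15a1, the peptide transporter, went the other way, counted 9825, 7448 and 8632 times in the controls and 670, 552 and 531 times under PFOA. The summed level of the 6 rows was 4850.2 to 5287 CPM in control and 5025 to 7285 CPM in PFOA, highest in PFOA replicate 1. Slc15a1 carried most of that level in every control library and a small part of it in every PFOA library. The similar sums therefore do not show that the other rows stayed level. The part of these markers in the result was not tested. Of 13 hepatocyte markers, 2 had rows and both were lower, with Alb at 38, 46 and 20 counts in control and at 0, 0 and 1 in PFOA. Since the labels name no part of the colon, a difference in the sampled position and a PFOA effect cannot be told apart for any of these genes. Among listed markers of position, 8 of 9 proximal colon rows were higher in PFOA, of which 3 are rows of 1 gene, Muc2. Without Muc2, 5 of 6 rows were higher, with a summed level of 2668 to 5804 CPM in control and 32308 to 55642 CPM in PFOA. Cyp2c55, counted 77437, 42284 and 48636 times under PFOA, carried most of that level in each PFOA library. Of the rows listed as proximal, Insl5 alone was lower, counted 959, 1761 and 1582 times in the controls and 4, 11 and 18 times under PFOA. Of 10 distal colon rows, 9 were lower, and Car1 alone was higher. Without Car1, the summed level of the 9 rows was 17403 to 24024 CPM in control and 2377 to 3142 CPM in PFOA. The Car1 and Muc2 rows were set aside after their values were seen. Whether the lists place each gene, among them Insl5 and Car1, in the right part of the colon was not checked.

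Ppara, the fatty acid receptor, was the most uniform of the genes that rose. It was counted 1708, 1643 and 1758 times in the controls and 7039, 10115 and 9728 times under PFOA. The control libraries lay within a narrow range, and each PFOA library was several times above it. Ppara was at 808 ± 21.2 CPM in control and 4358 ± 518 CPM in PFOA (SD, n = 3 per group). The ratio was 5.42-fold and the log2 fold change 2.43 ± 0.21 (standard error over 3 libraries a group; adjusted p of edgeR = 0.000113). With any 1 library left out, the log2 fold change stayed between 2.30 and 2.49. PFOA replicate 1, the highest library for the other genes that rose, was the lowest PFOA library here, at 0.811 times the mean of the other PFOA libraries. The row (chr15:85734983-85806757, plus strand) is an assembled locus with a model of 48027 bases, against 3413 bases for the longest annotated Ppara transcript, and part of its model lies in annotated introns or beyond the gene's end. Its counts may therefore include reads from outside the known exons.

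Lpin2 and Ppara are also expressed by adipocytes, and fat attached to the gut can enter a colon sample. Of 16 adipocyte markers, 8 had rows, and all 6 of those tested were higher in PFOA, with a summed level of the 8 rows of 965 to 1161 CPM in control and 3946 to 5971 CPM in PFOA. Pparg carried most of this sum in every library. It was counted 1594, 2019 and 2183 times in the controls and 8958, 7184 and 7123 times under PFOA. The rows differed among the PFOA libraries. Adipoq and Plin1, counted 54 and 61 times in PFOA replicate 1 and 150 and 128 times in PFOA replicate 3, were at 0 in PFOA replicate 2, and Cfd and Car3 were at 3 and 7 counts there, within or below the control counts. Cidec, Lpl, Pparg and Acvr1c were above every control in PFOA replicate 2 as well, at 144, 465, 7184 and 580 counts. The part of these markers in the Lpin2 and Ppara results was not tested.

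**Figure D2:**
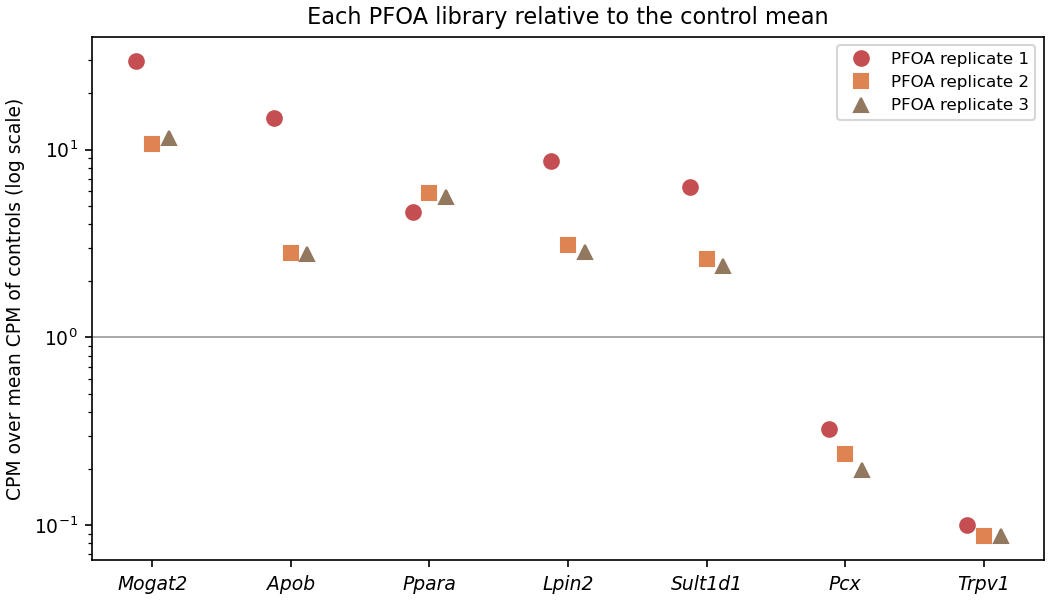
CPM of each PFOA library divided by the control mean of the same gene (vertical axis, log scale, line at 1), for the 7 genes counted in PFOA; circles, squares and triangles are PFOA replicates 1, 2 and 3. PFOA replicates 2 and 3 lie close together for every gene, while PFOA replicate 1 lies above them for Mogat2 (29.8 times the control mean), Apob (14.7), Lpin2 (8.72) and Sult1d1 (6.28) and below them for Ppara (4.67).

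Sult1d1, a cytosolic sulfotransferase that the table annotates to catecholamine metabolism and sulfation, was the smallest of the rises with all libraries in. It was counted 888, 1543 and 1350 times in the controls and 7001, 3308 and 3056 times under PFOA. The lowest PFOA library was above the highest control library. Sult1d1 was at 597 ± 157 CPM in control and 2245 ± 1307 CPM in PFOA (SD, n = 3 per group), a 3.64-fold ratio. The log2 fold change was 1.91 ± 0.42 (standard error over 3 libraries a group; adjusted p of edgeR = 0.00384), or 1.29 without PFOA replicate 1. The row (chr5:87554645-87569261, minus strand) overlaps no other gene model. Sulfotransferases share similar sequences, and the treatment of reads that fit several genes is not given in the sources used here.

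The split among the PFOA libraries was shared by 4 of the 5 genes that rose. PFOA replicate 1 was at 5.24 times the mean of PFOA replicates 2 and 3 for Apob, 2.93 times for Lpin2, 2.68 times for Mogat2 and 2.52 times for Sult1d1, all in CPM. Over the 804 tested rows that were higher in PFOA, the median of this ratio was 1.09, and 15.3% of them reached 2. Apob lay above 98.1% of those rows, Lpin2 above 93.2%, Mogat2 above 91.5% and Sult1d1 above 89.9%, whereas Ppara lay above 29.5%. In CPM, control replicate 1 was the lowest control for all 4 of them and for none of the other genes. With 1 library on one side, the split has no replicate check.

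Pcx, which encodes pyruvate carboxylase, the mitochondrial enzyme that makes oxaloacetate for glucose and citrate for fatty acid synthesis, was lower in PFOA. It was counted 3244, 3147 and 3230 times in the controls and 924, 777 and 641 times under PFOA. The libraries of each group lay close together and far from the other group. Pcx was at 1523 ± 58.6 CPM in control and 387 ± 99.8 CPM in PFOA (SD, n = 3 per group), 3.98-fold lower, with a log2 fold change of -1.98 ± 0.24 (standard error over 3 libraries a group; adjusted p of edgeR = 0.000429). The row (chr19:4510472-4621752, plus strand) also spans Lrfn4, a protein-coding gene on the opposite strand.

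Trpv1, the heat- and capsaicin-gated cation channel of sensory nerve endings, carries the term although it is no enzyme of lipid metabolism. It had 40, 31 and 30 counts in control and 3 counts in each PFOA library. Trpv1 was at 16 ± 3.08 CPM in control and 1.47 ± 0.117 CPM in PFOA (SD, n = 3 per group). With equal counts in the PFOA libraries, the SD there reflects library scaling only and does not measure how tight the group is. Trpv1 was 10.9-fold lower, with a 95% counting interval (Clopper-Pearson) from 5.51 to 24.5, and its log2 fold change was -3.39 ± 0.38 (standard error over 3 libraries a group; adjusted p of edgeR = 0.000301). Of 13 markers of enteric neurons and glia, 1 had a row, the glial filament gene Gfap, and it moved the opposite way, counted 38, 33 and 41 times in the controls and 102, 129 and 107 times under PFOA. The Trpv1 row (chr11:73234292-73261239, plus strand) overlaps no other gene model.

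**Figure D3:**
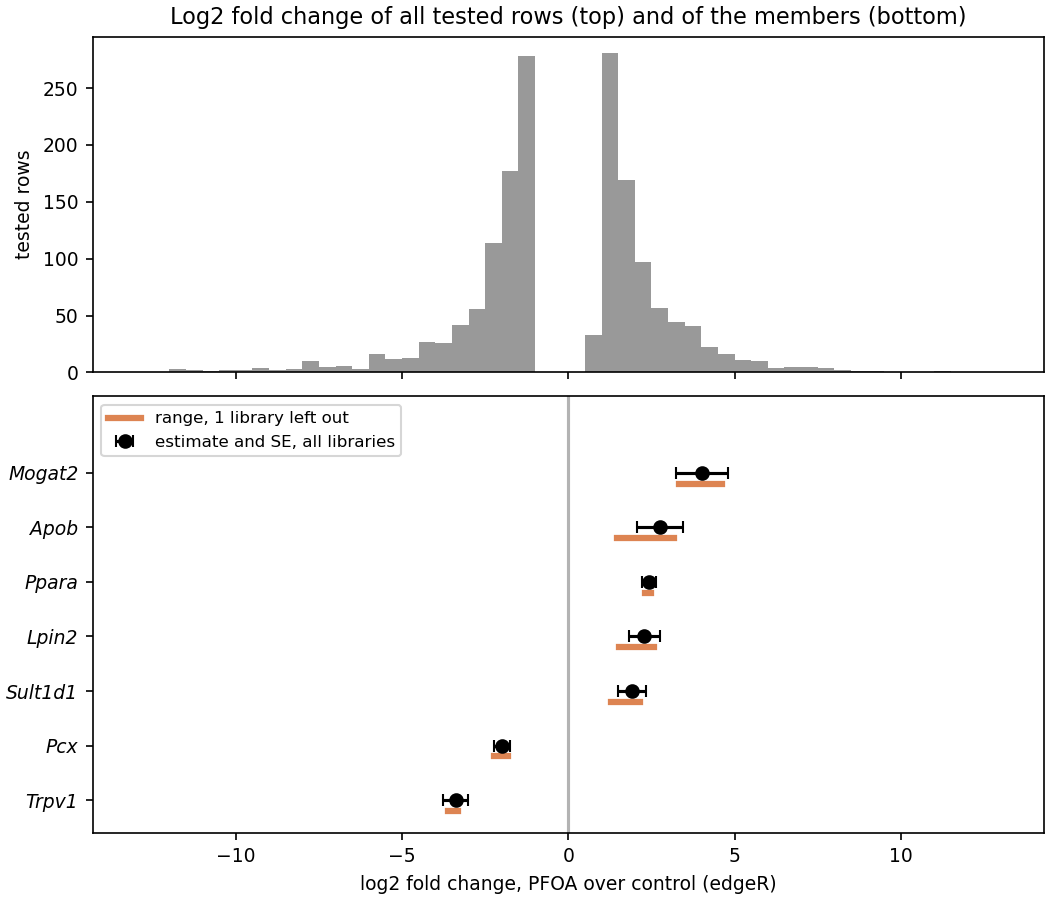
Number of tested rows by log2 fold change of PFOA over control (top, 1608 rows) and the log2 fold change of the 7 tested genes (bottom), where points and thin bars give the edgeR estimate and its SE with all libraries and thick bars the range when 1 library is left out. The empty centre of the top panel shows that the table holds no row near 0, and the thick bar is widest for Apob, down to 1.46.

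Other genes of lipid pathways were counted in 12 lists by role, which hold 762 entries. Outside the 8 genes they had 80 rows, of which 70 were tested, 35 higher and 35 lower in PFOA (edgeR adjusted p under 0.05). The lists leave out 11 symbols that the choice of genes above also leaves out, among them Pparg, Cidec, Lpl, Nr1h4 and Mgll. All 11 have rows and 9 were tested, and those 9 were higher in PFOA. With them, the counts are 44 higher and 35 lower of 79, so the even division depends on leaving them out. Rows of the excluded symbol prefixes are not in these counts either, so the division over all lipid genes is not known from them. In the triglyceride, droplet and lipase list that holds Mogat2, Lpin2 and Pnliprp1, the other 7 tested rows comprised 4 higher and 3 lower, without Cidec, a droplet protein (log2 fold change 3.30), and Lpl, lipoprotein lipase (3.55), which were both higher. Hsd17b13, a lipid droplet protein, rose with a log2 fold change of 4.31, while Gk, the glycerol kinase, fell by 2.54 on the log2 scale. In the lipoprotein and lipid transport list that holds Apob, 2 of 5 other tested rows were higher and 3 were lower. In the list of regulators that holds Ppara, all 3 other tested rows were lower, among them Klb, the FGF co-receptor, at a log2 fold change of -4.17. The nuclear receptors Pparg (2.07) and Nr1h4 (1.72), left out of that list, were higher, so the regulators as a whole did not lie on one side.

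The list of fatty acid oxidation and ketone bodies, the pathway that PPAR-alpha is known to switch on, had 4 tested rows, all higher in PFOA. Its rows too low to test went both ways. Cyp4f15 had 0, 0 and 0 counts in control and 18, 2 and 4 under PFOA, and Cyp4f39 had 26, 8 and 6 against 2, 1 and 1. The list of fatty acid synthesis, activation, elongation and desaturation had 3 rows higher and 6 lower. Fads2, a desaturase, was counted 10819, 6185 and 8187 times in the controls and 1837, 1134 and 1178 times under PFOA. The steroid and bile acid list had 6 rows higher and 1 lower, and the retinoid list 5 higher and 6 lower. Sphingolipid genes were divided 5 and 5, phospholipid genes 2 higher and 3 lower, phosphoinositide genes 1 and 2, eicosanoid genes 1 and 3, and sterol genes 2 and 0. The sterol rows too low to test were lower by count. Ces3a had 6, 16 and 3 counts in control and 1, 0 and 1 under PFOA, and Ces3b had 4, 44 and 4 against 0, 0 and 0. The genes named from these lists were chosen after their values were seen.

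**Figure D4:**
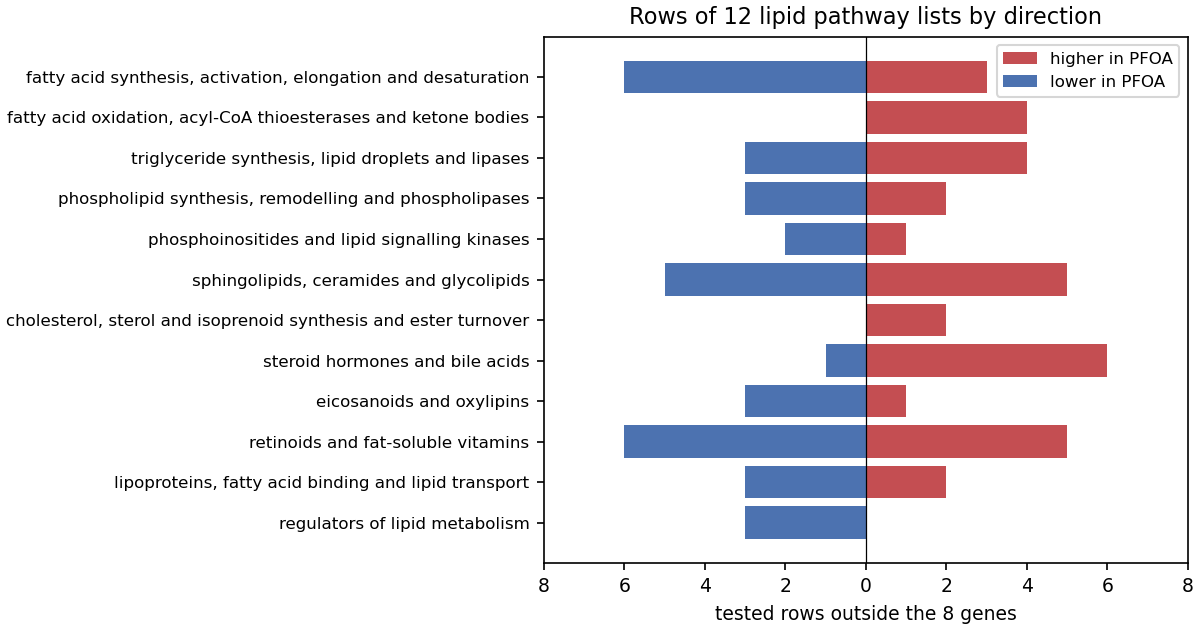
Number of tested rows higher (red, to the right) and lower (blue, to the left) in PFOA in each of 12 lists of lipid genes by role, leaving out the 8 genes described above and 11 symbols set aside with the choice of genes, of which all 9 tested were higher. The tested rows of fatty acid oxidation (4 higher, 0 lower), sterols (2 higher, 0 lower) and the regulators (0 higher, 3 lower) lie on one side. Rows too low to test are not shown. Among these, Ces3a and Ces3b of the sterol list and Cyp4f39 of the oxidation list were lower by count, and Cyp4f15 was higher. The 12 lists together hold 35 higher and 35 lower tested rows.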

How the data were processed

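Mouse colon RNA was sequenced in 6 libraries, 3 control and 3 PFOA, with a SMARTER kit according to the labels. HISAT2, HTSeq and mm10 are listed, unversioned and unordered, in the submitters' processing notes. The authors deposited 1 table of raw read counts per gene row. The sources used here do not state strand use, multi-mapping, the assembler of loci or the row selection. Columns were matched to samples by the sample descriptions. The deposited lengths of row models in bases were used only to describe rows.

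edgeR 4.0.16 (R 4.3.3) fitted all rows: filterByExpr, TMM factors, glmQLFit and glmQLFTest, PFOA against control without covariates, two-sided, Benjamini-Hochberg over all tested rows, threshold 0.05. The SE is the absolute log2 fold change over the root of F. CPM uses the counts and TMM factors of tested rows. Fold values are ratios of summed scaled counts. The fit was tested on simulated data. Replicates differed beyond sampling noise (smallest chi-square per degree of freedom 22.4).

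Members and lists were chosen with earlier results of these data known. By rule, tested members with a mean of at least 1 CPM, among the 12 largest changes in a direction, were given in full, which took all 7. Gene models are GENCODE M21, and start regions RefSeq. Alternatives were DESeq2 1.42.0, limma-voom (limma 3.58.1), other scalings and filters, the replicate number as a block and each library left out.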

Additional observations from a re-analysis of the deposited data

How the results depend on the processing

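The counts of 5 higher and 2 lower tested genes were found under all 13 alternatives, except that without a filter Pnliprp1 was tested too (edgeR adjusted p = 0.0151), giving 3 lower; with 0 counts in PFOA its fitted fold change depends on the prior count and is not given. All 91 values of the 7 tested genes kept their direction and their side of the threshold. The largest adjusted p over the alternatives was 0.0325, for Apob. The median log2 fold change of the genes lay between 1.46 (without PFOA replicate 1) and 2.41 when 1 library was left out, and the number of listed rows called between 1531 and 1663. Scaling by library totals alone shifted the log2 fold changes of all rows by a median of -0.20 and gave 2.04 for the genes. The 7 genes kept their direction and call under it, while the rows called fell from 1608 to 1582 and the lipid list rows called higher from 35 to 34.

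Deviations of same-numbered libraries from their group means had correlations of 0.114, -0.031 and 0.102. These lay within the range for differently numbered libraries, -0.149 to 0.117. With 3 libraries a group and only rows that already differed, this check cannot exclude that the numbers pair them. With the replicate block, 5 genes were called higher, 2 lower and 1579 rows in all, with a median of 2.08 for the genes. For the lipid lists, 30 to 35 of 70 rows were called higher and 34 or 35 lower under the alternatives. Mogat2, Trpv1 and Pnliprp1 are limited by low counts.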

Other observations

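A few other lipid genes shared the excess of PFOA replicate 1 over the other PFOA libraries. Of the 35 rows of the lipid lists that were higher in PFOA, 5 were at least at 2 times the mean of PFOA replicates 2 and 3 in CPM, or 14.3%, beside 15.3% of all higher tested rows. They were chosen for this ratio, so it is a description. St3gal5, the sialyltransferase that makes the ganglioside GM3, was counted 55, 77 and 93 times in the controls and 1095, 83 and 71 times under PFOA, so that only PFOA replicate 1 was above the controls by count. Dhrs9, a retinol dehydrogenase, was counted 19, 62 and 33 times in the controls and 249, 68 and 65 times under PFOA. Stard5, a lipid transfer protein whose row is merged with a predicted gene, was counted 927, 1054 and 1001 times in the controls and 4257, 1788 and 1680 times under PFOA. Elovl6, a fatty acid elongase whose row is likewise merged, was counted 816, 1774 and 1686 times in the controls and 5338, 2858 and 2457 times under PFOA. The fifth was Fabp2, given above.

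Other genes that rose were lower in PFOA replicate 1 than in the other PFOA libraries. Those with the lowest ratios to the mean of PFOA replicates 2 and 3 in CPM, from 0.0673 to 0.243, are given. They were chosen for this ratio, so it is a description. Cyp4b1, a fatty acid hydroxylase, was counted 39, 53 and 34 times in the controls and 748, 3433 and 3596 times under PFOA. Ugt8a, which makes galactosylceramide, was counted 15, 9 and 12 times in the controls and 41, 255 and 245 times under PFOA. Pla2g4c, a cytosolic phospholipase, was counted 23, 21 and 31 times in the controls and 42, 1249 and 174 times under PFOA, with PFOA replicate 2 far above the rest.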
